A study of Homo sapiens with 6 samples.

Results

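The circadian clock genes examined here are CLOCK, ARNTL, PER1, PER2, PER3, CRY1, CRY2, NR1D1, NR1D2 and DBP, taken by symbol as 10 rows of a table of 33900 genes. They were compared in LX-2 cells, a human hepatic stellate cell line that the sample labels give as wild type. All samples were grown in DMEM with fetal bovine serum. One group of 3 samples received recombinant human Sema3C (rhSema3C) at 300 ng/ml for 48 h, and the control group of 3 samples received PBS for the same time. The labels call the samples biological replicates, and no source used here says whether they came from separate cultures, so p-values measure the spread between these samples.

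In mammalian cells the clock is a feedback loop of transcription. CLOCK and BMAL1, the protein of ARNTL, bind E-boxes and switch on the PER, CRY, NR1D1, NR1D2 and DBP genes. PER and CRY proteins then block CLOCK and BMAL1, while the REV-ERB proteins of NR1D1 and NR1D2 repress ARNTL and the ROR proteins activate it through the same element. In the liver this loop is known for setting the daily timing of lipid and bile acid metabolism. Each culture was read at a single time, and neither the labels nor the methods describe a step that synchronises the cells, so a shift in the timing of the cycle and a change in the mean level of a gene cannot be told apart here. Nor can a change per cell be told apart from a change in the share of cells that express a gene.

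The libraries held between 68267808 and 89245585 counts on genes, of which the 10 clock genes took between 15568 and 29588. The labelled cell type was checked with 9 stellate cell and fibroblast markers. COL1A1, COL3A1, PDGFRB, ACTA2, VIM and TIMP1 were above 1 FPKM in every sample (fragments scaled to both transcript length and library size), while COL1A2, DES and LRAT stayed below 1 in every sample. The summed FPKM of these markers, mostly VIM, was 1380 to 1440 with PBS and 1090 to 1150 with rhSema3C. PDGFRB did not fall with the sum, at 4.35 to 5.21 FPKM with PBS and 5.11 to 5.61 with rhSema3C. None of the 2 hepatocyte (ALB and APOA1), 3 endothelial and 2 epithelial markers that were measured reached 1 FPKM in any sample, and TTR and CYP3A4 were not analysed here. The summed endothelial markers, mostly VWF, were at 0.151 to 0.178 FPKM with PBS and at 0.589 to 0.843 with rhSema3C. Among the 3 leukocyte markers, PTPRC and CD3E were at most 0.0181 FPKM, and only CD68 was above 1. Its level was 90.2 to 98.0 FPKM with PBS and 63.6 to 69.8 with rhSema3C. Mitochondrial transcripts took 4.75 to 5.42% of the counts with PBS and 3.73 to 3.93% with rhSema3C. The part of these differences in the clock results was not tested.

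After 48 h with rhSema3C, PER1, ARNTL, PER3, NR1D2 and NR1D1 were higher than with PBS, and no clock gene was lower. PER1 rose 2.01-fold, ARNTL 1.59-fold, PER3 and NR1D2 1.43-fold each, and NR1D1 1.15-fold. CLOCK, PER2, CRY1, CRY2 and DBP did not pass the test. The quasi-likelihood method of edgeR was applied to the TMM-scaled counts of 14178 genes whose FPKM averaged 0.5 or more, with Benjamini-Hochberg adjustment, and SE below is the standard error of a log2 fold change. All 10 clock genes passed that filter, and DBP was closest to it with a mean of 0.668 FPKM. Of the 10 clock genes, 5 were called higher at an adjusted p of 0.05, against 31.7% of all genes tested, and 0 were called lower, against 30.6%. With no adjustment, 6 rises and 0 falls had a p below 0.05. The share of all genes under that rule was not counted, but it cannot be below the 31.7% and 30.6% called after adjustment. DESeq2 also called 6 rises and 0 falls after adjustment, against 4470 rises and 4513 falls among all 14178 genes. The median log2 fold change was 0.25 over the clock genes and 0.02 over all genes tested. The study set its threshold, a fold change above 2 with p below 0.05, on Cufflinks output. Here that threshold was applied to the edgeR fold changes and unadjusted p-values, so the calls need not match the study's. PER1 was then the 1 clock gene called, against 3.42% of all genes that were called higher. In 5 clock genes every rhSema3C sample lay above every PBS sample in CPM (counts scaled to library size and TMM factor), and 34.6% of all genes tested showed the same separation upward. For each of these 5 genes the two-sided exact permutation test gave p = 0.1, the smallest that 3 samples against 3 allow.

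**Figure D1:**
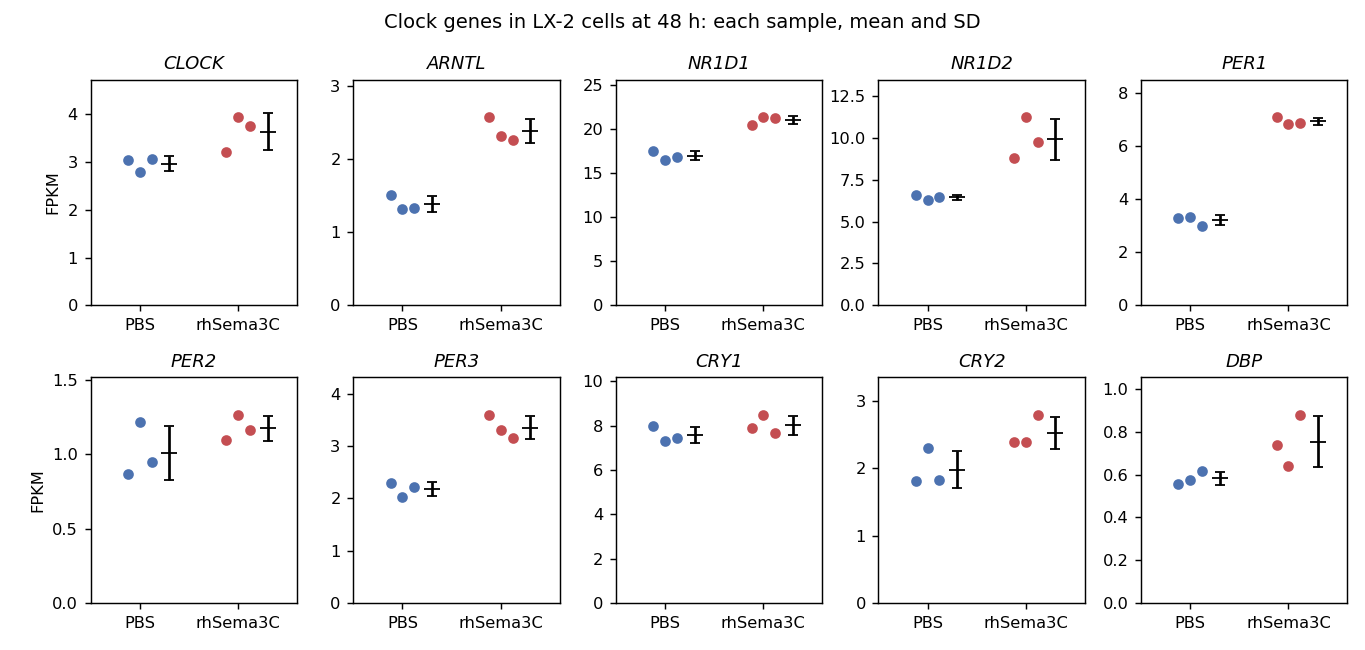
FPKM of the 10 clock genes in each sample, with PBS in blue and rhSema3C in red, and with bars for the mean and SD of the 3 samples of a group. The groups are far apart for PER1 (3.00 to 3.34 against 6.84 to 7.09 FPKM) and overlap for PER2 and CRY1.

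ARNTL encodes BMAL1, a partner of CLOCK. Its expression was 11.1, 9.87 and 9.91 CPM in PBS replicates 1, 2 and 3, and 17.8, 15.9 and 15.6 CPM in the rhSema3C replicates. The groups did not overlap. This gave a log2 fold change of 0.67 (SE 0.10, edgeR adjusted p = 0.00012), and 9.30% of the genes tested had a larger one. ARNTL (ENSG00000133794) lies on the plus strand of chromosome 11 of GRCh38 from 13276652 to 13387266, and no other gene of the table overlaps it. RefSeq lists it as BMAL1 and gives 2 starts. A ROR element, searched as TAGGTCA or TGGGTCA on both strands, stands at positions 31 to 37 after the second start, which is counted as position 1. The stretch is shown because this element is the known meeting point of the REV-ERB and ROR proteins on this gene. The capitals mark the element, and all 29 bases are exonic in GENCODE 29.
ARNTL, chr11:13277809-13277837, plus strand: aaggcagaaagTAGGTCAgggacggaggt

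CLOCK, the histone acetyltransferase and DNA-binding partner of BMAL1, was measured at 37.3, 34.4 and 37.4 CPM in the PBS replicates and at 36.6, 45.0 and 42.8 CPM in the rhSema3C replicates. The groups overlapped, because rhSema3C replicate 1 was below PBS replicates 1 and 3. The log2 fold change was 0.19 with a 95% interval of 0.01 to 0.37, and the gene did not pass after adjustment (edgeR adjusted p = 0.060). Without rhSema3C replicate 1 it was 0.27 and passed (edgeR adjusted p = 0.0063). Among the alternatives its adjusted p ranged from 0.0052 to 0.20. CLOCK (ENSG00000134852) lies on the minus strand of chromosome 4 from 55427903 to 55546909.

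NR1D1 and NR1D2 encode REV-ERBα and REV-ERBβ, heme-binding nuclear receptors that repress ARNTL. NR1D2 was at 40.5, 39.0 and 39.5 CPM in the PBS replicates and at 50.4, 64.3 and 55.6 CPM in the rhSema3C replicates. The PBS samples lay close together, while the rhSema3C samples were all higher and spread more widely. NR1D2 rose by 0.52 on the log2 scale (SE 0.08, edgeR adjusted p = 0.00019), and without rhSema3C replicate 2, the highest sample, it was 0.42.

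NR1D1 was at 48.8, 46.3 and 46.7 CPM in the PBS replicates and at 53.4, 55.4 and 54.9 CPM in the rhSema3C replicates. The groups did not overlap, but the difference was the smallest of the 5 that passed, with a log2 fold change of 0.21 (SE 0.05, edgeR adjusted p = 0.0044). With library size alone as the scaling it was 0.31, and with limma on log2(TPM + 1) it was 0.43. NR1D1 (ENSG00000126368) lies on the minus strand of chromosome 17 from 40092793 to 40100589. It shares 263 exonic bases, 9.49% of its own, with THRA, the thyroid hormone receptor gene on the opposite strand, and reads of the pair cannot be told apart there unless the counting used strand. THRA fell, with a log2 fold change of -0.43 (edgeR adjusted p = 7.3e-06). The NR1D1 difference was therefore opposite in sign to that of its overlapping neighbour.

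NR1D2 (ENSG00000174738) lies on the plus strand of chromosome 3 from 23945286 to 23980617, and it shares no exonic base with NKIRAS1, which overlaps it on the opposite strand. Its second RefSeq start has the densest group of clock motifs among the windows of the 10 genes, each of 250 bases before and 50 after a start. Besides the ROR element, the motifs were the E-box CACGTG, its variant the E′-box CACGTT and the D-box TTATGTAA or TTACGTAA, on both strands and with no overlap among the matches. The NR1D2 stretch is printed for its 4 matches, with the motifs in capitals. From left to right these are a D-box on the minus strand at position -194, an E-box at -155, a ROR element on the minus strand at -133 and an E-box at -105. It lies within the gene, and none of its 117 bases is exonic in GENCODE 29. NR1D1 has 1 match, an E′-box at position -168, upstream of the gene, with CACGTT read on the strand opposite to the gene.
NR1D2, chr3:23945916-23946032, plus strand: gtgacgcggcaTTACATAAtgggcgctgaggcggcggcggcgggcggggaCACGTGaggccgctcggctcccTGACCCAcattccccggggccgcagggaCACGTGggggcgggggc
NR1D1, chr17:40100741-40100768, minus strand: cgcaagagctcAACGTGccggctgttgg

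The PER genes encode the proteins that, with CRY, inhibit CLOCK and BMAL1. PER1, which is also known as an immediate early gene of several signalling pathways, had the largest difference of the 10. It was at 24.4, 25.1 and 22.3 CPM in the PBS replicates and at 49.3, 47.4 and 47.6 CPM in the rhSema3C replicates. The samples of each group lay close together and far from the other group. PER1 rose by 1.01 on the log2 scale (SE 0.07, 95% interval 0.86 to 1.15, edgeR adjusted p = 2.7e-07), and 3.54% of the genes tested had a larger log2 fold change. This value sits at a fold change of 2, and it was above 2 under 9 of the 15 alternatives. In the edgeR fit it was 0.96 on the log2 scale without PBS replicate 3 and 0.99 without rhSema3C replicate 1. The edgeR call at a fold change above 2 therefore did not hold without either of these samples.

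PER3, for which a variable repeat in the protein is known, was at 19.8, 17.6 and 19.0 CPM in the PBS replicates and at 28.9, 26.5 and 25.3 CPM in the rhSema3C replicates. The groups did not overlap, and the log2 fold change was 0.52 (SE 0.08, edgeR adjusted p = 0.00021). An unnamed gene of the clone Z98884 on the opposite strand shares 482 exonic bases with PER3, at a mean of 0.162 FPKM with PBS and 0.247 with rhSema3C.

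PER2 was at 6.30, 8.94 and 6.90 CPM in the PBS replicates and at 7.49, 8.60 and 7.91 CPM in the rhSema3C replicates. PBS replicate 2 was the highest sample of all 6, so the groups overlapped. The log2 fold change was 0.12 with a 95% interval of -0.20 to 0.43 (edgeR adjusted p = 0.50). It ranged from 0.01 without PBS replicate 1 to 0.28 without PBS replicate 2. A fold change above 1.35 or below 0.870 lies outside the interval, and smaller changes could not be resolved with these samples. Within a library, the log2 ratio of PER1 to PER2 in FPKM was 1.92, 1.46 and 1.66 with PBS and 2.69, 2.43 and 2.57 with rhSema3C, a pair chosen after the values were seen.

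PER1 (ENSG00000179094) lies on the minus strand of chromosome 17 from 8140472 to 8156405 and shares 78 exonic bases with MIR6883 and 30 with a gene of the clone AC129492, both on its own strand. PER2 (ENSG00000132326) lies on the minus strand of chromosome 2 from 238244044 to 238290102 and shares 188 exonic bases, 2.73% of its own, with a gene of the clone AC012485 on the opposite strand, which was listed near 0 FPKM. PER3 (ENSG00000049246) lies on the plus strand of chromosome 1 from 7784320 to 7845177.

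The promoter windows of the PER genes are shown for the motifs through which CLOCK, BMAL1 and the D-box factors are known to act. PER1 has an E-box at position -173, PER2 an E′-box at -197 and a D-box that spans the start from -3 to 5, and PER3 a D-box at -177. The capitals mark these motifs. The PER1 stretch and the first PER2 stretch lie within the annotated gene and hold no exonic base in GENCODE 29, 15 bases of the second PER2 stretch are exonic, and the PER3 stretch lies upstream of the gene.
PER1, chr17:8152561-8152588, minus strand: gcacccaggtcCACGTGcgcccgtgtgt
PER2, chr2:238288791-238288818, minus strand: gcgcgcgcggtCACGTTttccactatgt
PER2, chr2:238288595-238288624, minus strand: cccgctgcggcTTACGTAAccgccgccggc
PER3, chr1:7784103-7784132, plus strand: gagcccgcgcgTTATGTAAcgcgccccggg

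All 10 clock genes were matched to RefSeq promoters (GRCh38.p14), with 15 windows in all. The E-box was found in 2 of these 15 windows and in 7.26% of all 35116 windows. The E′-box was found in 5 of the 15 and in 5.34% of all windows, and the ROR element in 4 of the 15 and in 5.69%. The D-box was found in 3 of the 15, those of PER2, PER3 and NR1D2, and in 1.01% of all windows. DBP has no match in its window. A match describes letters in a window and is not evidence of binding in these cells.

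CRY1 and CRY2 encode the cryptochromes, the strongest repressors of CLOCK and BMAL1. CRY1 was at 40.4, 37.4 and 37.6 CPM in the PBS replicates and at 37.4, 40.1 and 36.1 CPM in the rhSema3C replicates. The groups overlapped, and the log2 fold change was -0.02 with a 95% interval of -0.17 to 0.12 (edgeR adjusted p = 0.78). The sign turned with the scaling, and CRY1 passed the test as higher with limma on log2(TPM + 1), at 0.20 (limma adjusted p = 0.013).

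CRY2 was at 11.9, 15.3 and 12.03 CPM in the PBS replicates and at 14.7, 14.7 and 17.1 CPM in the rhSema3C replicates. PBS replicate 2 lay above 2 of the rhSema3C samples. The log2 fold change was 0.24 with a 95% interval of -0.01 to 0.50 (edgeR adjusted p = 0.092). Without PBS replicate 2 it was 0.37 and passed (edgeR adjusted p = 0.016). PBS replicate 2 was thus the highest PBS sample for both PER2 and CRY2. CRY1 (ENSG00000008405) lies on the minus strand of chromosome 12 from 106991364 to 107093549, and CRY2 (ENSG00000121671) on the plus strand of chromosome 11 from 45847118 to 45883247.

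DBP encodes a PAR bZIP factor that activates genes with a D-box and is a direct output of the loop. It had the lowest expression of the clock genes, with 282 to 331 counts in the PBS samples and 380 to 474 in the rhSema3C samples. In CPM it was at 3.85, 4.03 and 4.28 with PBS and at 4.78, 4.14 and 5.66 with rhSema3C. The groups overlapped through rhSema3C replicate 2, and the log2 fold change was 0.26 with a 95% interval of -0.09 to 0.61 (edgeR adjusted p = 0.17). It was 0.37 without rhSema3C replicate 2 and 0.14 without rhSema3C replicate 3. DBP (ENSG00000105516), on the minus strand of chromosome 19 from 48630030 to 48637379, shares 661 exonic bases, 10.1% of its own, with SPHK2 on the opposite strand, and SPHK2 fell with a log2 fold change of -0.33 (edgeR adjusted p = 0.0017).

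**Figure D2:**
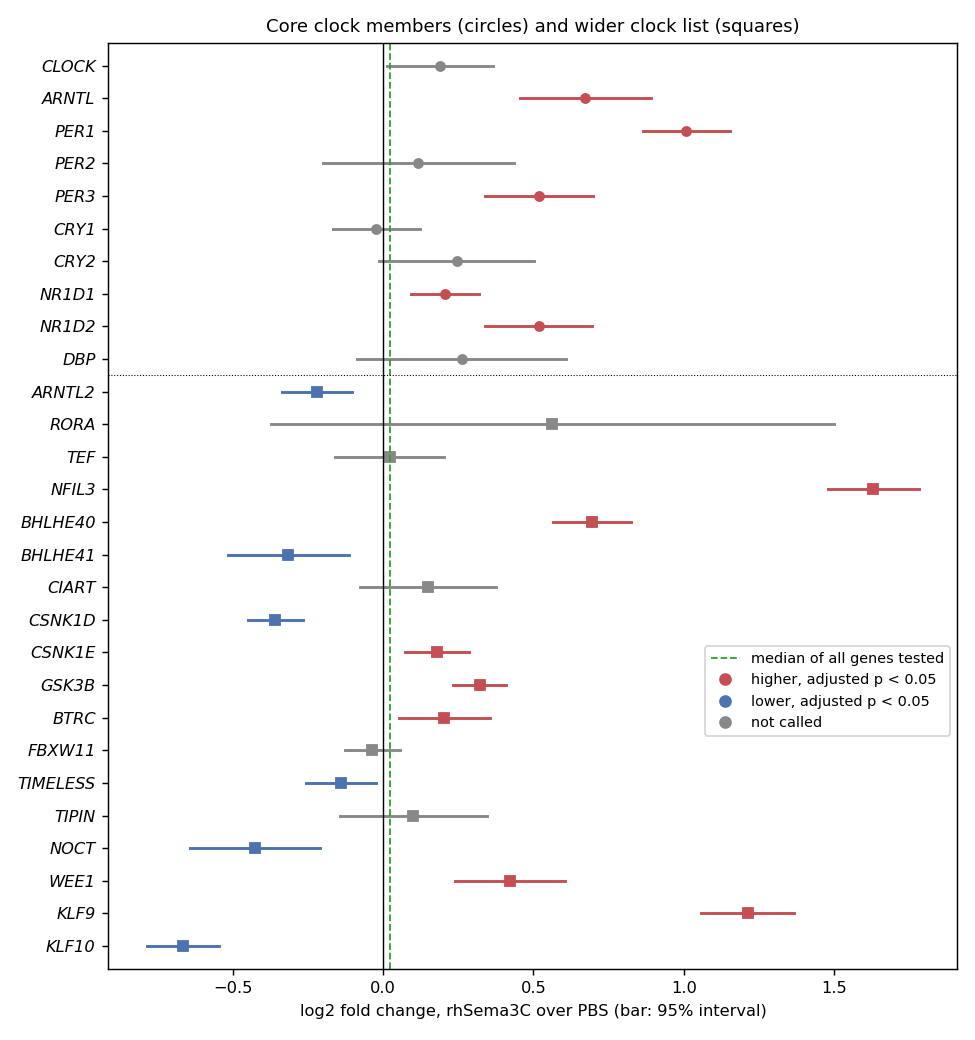
Log2 fold change of rhSema3C over PBS with its 95% interval from edgeR, for the 10 clock genes (circles) and 18 other clock genes (squares), coloured by call at an adjusted p of 0.05. PER1, at 1.01, has the largest difference of the clock genes, and NFIL3, at 1.63, the largest in the wider list.

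The order of the clock genes by FPKM, which is per length and can be compared between genes, differed between the groups in 1 place, where NR1D2 and CRY1 exchanged ranks. With PBS, NR1D1 was highest at 16.9 ± 0.520 FPKM (SD, n = 3), followed by CRY1 at 7.58 ± 0.346 and NR1D2 at 6.45 ± 0.155. PER1 followed at 3.21 ± 0.183 and CLOCK at 2.97 ± 0.156, and the samples of these neighbours overlapped. PER3 and CRY2 also overlapped, at 2.18 ± 0.140 and 1.98 ± 0.277. ARNTL at 1.39 ± 0.106, PER2 at 1.01 ± 0.184 and DBP at 0.583 ± 0.0305 were lowest, with no overlap between neighbours. With rhSema3C, NR1D2 at 9.92 ± 1.24 FPKM stood above CRY1 at 8.02 ± 0.425, and these samples did not overlap. PER1, at 6.94 ± 0.136, was separated from CLOCK, at 3.64 ± 0.385. CLOCK and PER3, and CRY2 and ARNTL, were the neighbours that overlapped. NR1D1 remained highest at 21.0 ± 0.446 and DBP lowest at 0.754 ± 0.119.

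The scaling between libraries bears on these differences, so each clock gene was also set against CLOCK within the same library, where no scaling enters. CLOCK is not a constant reference. Its own log2 fold change was 0.19 (95% interval 0.01 to 0.37), and its rhSema3C samples spread from 36.6 to 45.0 CPM. Both enter every ratio to CLOCK. The log2 FPKM ratio of PER1 to CLOCK was 0.10, 0.26 and -0.03 with PBS and 1.15, 0.79 and 0.87 with rhSema3C. That of ARNTL to CLOCK was -1.02, -1.09 and -1.20 with PBS and -0.32, -0.77 and -0.73 with rhSema3C. For PER1, ARNTL, PER3 and NR1D2 the ratio to CLOCK was higher in every rhSema3C sample than in every PBS sample. The mean differences for these 4 genes were 0.83, 0.50, 0.33 and 0.33 on the log2 scale. The share of all genes whose ratio to CLOCK separates in this way was not computed. In FPKM without this reference, 42.4% of all genes tested were separated upward. For NR1D1 the ratio overlapped between the groups, with means of 2.51 ± 0.0553 and 2.54 ± 0.126 (SD, n = 3), so it was not separated from CLOCK. PER2, CRY1, CRY2 and DBP overlapped as well. The ratio of ARNTL to its repressor NR1D1 was -3.54, -3.65 and -3.65 with PBS and -2.99, -3.20 and -3.23 with rhSema3C. ARNTL thus stood 0.47 higher relative to NR1D1 with rhSema3C, although both transcripts were higher.

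**Figure D3:**
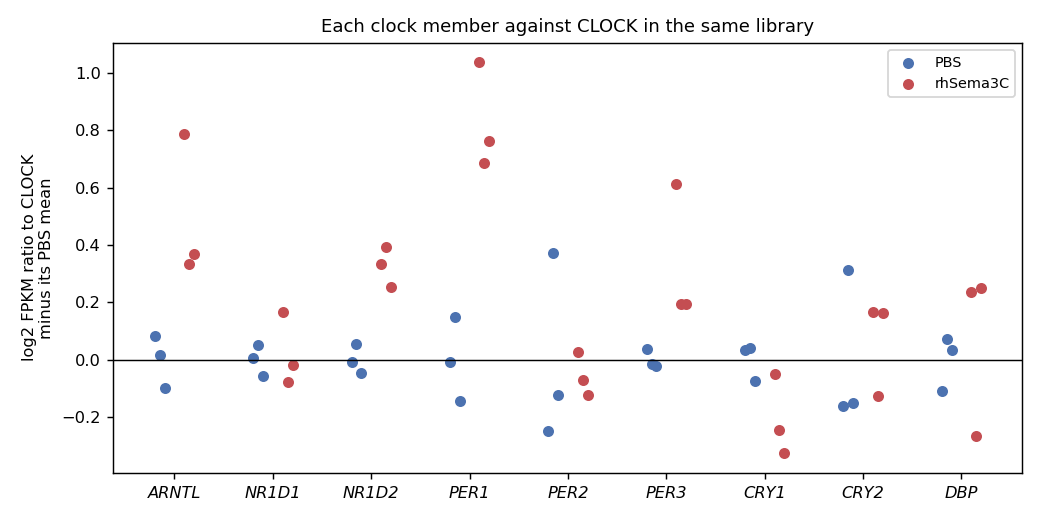
Log2 ratio of each clock gene to CLOCK in FPKM within the same library, minus its mean over the PBS samples, for each PBS (blue) and rhSema3C (red) sample. The groups are apart for ARNTL, NR1D2, PER1 and PER3 and overlap for NR1D1, PER2, CRY1, CRY2 and DBP.

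A wider list of 24 other clock genes was examined in the same fit, of which 19 were tested. Of these, 7 rose and 6 fell, to be read against 31.7% and 30.6% of all genes, and their median log2 fold change was 0.15. RORB was not analysed here. HLF had 8 counts or fewer in every sample, and NPAS2 and USP2 were below the filter on FPKM. NPAS2, a paralog of CLOCK, was at 0.291 to 0.382 FPKM with PBS and at 0.397 to 0.552 with rhSema3C. USP2, a ubiquitin protease known to be rhythmic, had 12 to 41 counts in the PBS samples and 55 to 95 in the rhSema3C samples.

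NFIL3, which represses through the D-box and thereby opposes DBP, had the largest difference in the wider list. It was at 17.4, 15.7 and 15.6 CPM with PBS and at 48.7, 51.4 and 50.6 CPM with rhSema3C. NFIL3 rose by 1.63 on the log2 scale (SE 0.07, edgeR adjusted p = 1.2e-08), a 3.10-fold difference that 0.734% of the genes tested exceeded. Within a library the log2 FPKM ratio of NFIL3 to DBP was 3.54 to 3.84 with PBS and 4.83 to 5.30 with rhSema3C, a pair chosen after the values were seen. TEF, a D-box activator of the DBP family, was at 19.9 to 22.6 CPM with PBS and at 20.04 to 22.4 with rhSema3C, with a log2 fold change of 0.02 (95% interval -0.16 to 0.20). NFIL3 passed the test and DBP and TEF did not, and NFIL3 stood higher relative to DBP in every rhSema3C sample than in every PBS sample.

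BHLHE40 and BHLHE41 (DEC1 and DEC2) compete with CLOCK and BMAL1 for the E-box. BHLHE40 had the highest FPKM of the wider list, at 47.4 ± 2.88 with PBS and 82.3 ± 5.33 with rhSema3C (SD, n = 3). In CPM it was at 163.9, 185.0 and 181.0 with PBS and at 307.0, 270.2 and 280.1 with rhSema3C, and its log2 fold change was 0.69 (SE 0.06, edgeR adjusted p = 1.9e-06). BHLHE41 was at 20.3 to 25.0 CPM with PBS and at 17.7 to 19.2 with rhSema3C. Its log2 fold change was -0.32 (edgeR adjusted p = 0.011), so the paralogs moved in opposite directions, but the fall did not pass with library size alone (-0.21) or without PBS replicate 3 (-0.25). CIART, another repressor of BMAL1, had a log2 fold change of 0.15 (95% interval -0.08 to 0.38) and did not pass, although its groups did not overlap in CPM. It passed with library size alone (0.26), with limma on log2(FPKM + 1) and log2(FPKM + 0.1), at 0.20 and 0.25, and on log2(TPM + 1), at 0.35.

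ARNTL2 encodes BMAL2, which can also pair with CLOCK. At 15.03 ± 0.956 FPKM with PBS and 13.9 ± 0.576 with rhSema3C (SD, n = 3), it stood far above ARNTL in both groups. Its log2 fold change was -0.22 (SE 0.05, edgeR adjusted p = 0.0037), but it lost the call with library size alone (-0.11) and was at 0.01 with limma on log2(TPM + 1). Within a library the log2 ratio of ARNTL2 to ARNTL was 3.42, 3.46 and 3.45 with PBS and 2.38, 2.65 and 2.60 with rhSema3C, also chosen after the values were seen. This ratio does not depend on the scaling, and it was lower in every rhSema3C sample. The rise of ARNTL, with a log2 fold change of 0.67, enters the ratio, so the ratio does not by itself show a fall of ARNTL2. RORA, an activator of ARNTL, had 455 and 661 counts in rhSema3C replicates 3 and 1 but 2257 in replicate 2, against 534 to 812 in the PBS samples. Its log2 fold change was 0.56 with all samples and -0.38 without rhSema3C replicate 2, and neither passed, with edgeR adjusted p-values of 0.27 and 0.079. It passed without rhSema3C replicate 3, at 0.92 (edgeR adjusted p = 0.043).

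Among 8 kinases, ubiquitin ligases and partners that act on PER and CRY, 3 were higher and 2 lower, to be read against 31.7% and 30.6% of all genes. The casein kinases that phosphorylate PER differed in direction. CSNK1D fell from 240.6 ± 7.41 to 187.8 ± 3.80 CPM (SD, n = 3 in each), or by 0.36 on the log2 scale (edgeR adjusted p = 1.9e-05). CSNK1E rose from 128.1 ± 7.43 to 145.0 ± 3.85 CPM, or by 0.18 (edgeR adjusted p = 0.0076). GSK3B, a kinase with several targets in the clock, rose by 0.32 on the log2 scale (edgeR adjusted p = 3.2e-05). BTRC, a ligase subunit for PER, rose by 0.20 (edgeR adjusted p = 0.022), but it did not pass without PBS replicate 1 (0.16) or rhSema3C replicate 1 (0.18). TIMELESS fell by 0.14 (edgeR adjusted p = 0.038), and it did not pass with library size alone (-0.03) or without PBS replicate 2 (-0.10), PBS replicate 3 (-0.14), rhSema3C replicate 2 (-0.11) or rhSema3C replicate 3 (-0.12). FBXW11, a paralog of BTRC, and TIPIN, the partner of TIMELESS, did not pass, with log2 fold changes of -0.04 and 0.10.

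Of the 4 output genes tested, KLF9 and WEE1 were higher and KLF10 and NOCT lower, to be read against 31.7% and 30.6% of all genes. KLF9, a Krüppel-like factor that is also a glucocorticoid target, was at 21.6, 20.1 and 22.7 CPM with PBS and at 50.2, 51.9 and 46.8 CPM with rhSema3C. KLF9 rose by 1.21 on the log2 scale (SE 0.07, edgeR adjusted p = 1.2e-07), and 1.89% of the genes tested had a larger log2 fold change. WEE1, the kinase that delays mitosis, rose by 0.42 on the log2 scale (edgeR adjusted p = 0.0010). KLF10 was at 74.6, 70.0 and 75.3 CPM with PBS and at 48.8, 44.8 and 45.2 CPM with rhSema3C, with a log2 fold change of -0.66 (edgeR adjusted p = 1.4e-06). NOCT, a rhythmic protein of the deadenylase family, had a log2 fold change of -0.43 (edgeR adjusted p = 0.0029), which did not pass with limma on log2(TPM + 1), at -0.19. At a fold change above 2, NFIL3 and KLF9 were the 2 genes of the wider list that were called, against 3.42% of all genes that were called higher.

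The 5 clock genes that were called higher passed an adjusted p of 0.05 under every alternative in which they were tested. For each of them the other scalings and tests spanned a wider range of log2 fold changes than leaving out 1 sample did. With library size alone the median log2 fold change of all genes tested moved from 0.02 to 0.13, and with limma on log2(TPM + 1) it moved to 0.23, while the median of the clock genes moved from 0.25 to 0.36 and 0.43. Of all calls at an adjusted p of 0.05, 50.9% were rises with TMM, 62.2% with library size alone and 74.1% with TPM. In FPKM every rhSema3C sample lay above every PBS sample in 8 of the 10 clock genes and in 42.4% of all genes tested, with CLOCK, CRY2 and DBP added to the 5 that were separated in CPM.

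**Figure D4:**
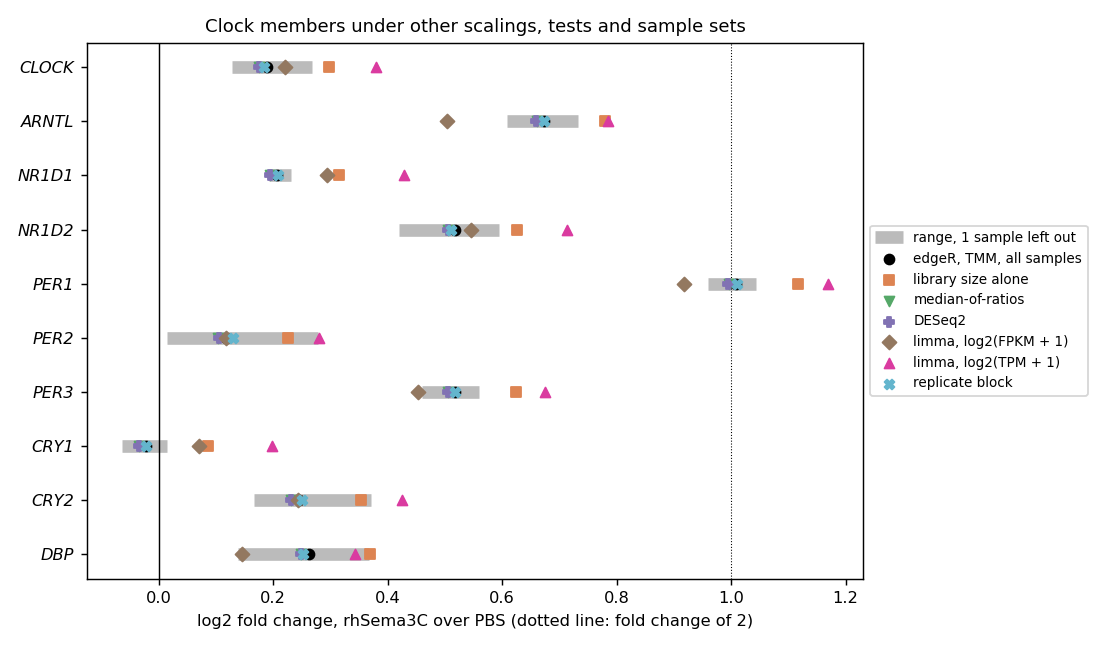
Log2 fold change of the 10 clock genes under other scalings and tests (symbols) and over the fits that each left out 1 sample (grey bars), with a dotted line at a fold change of 2. PER1 stays near 1 on the log2 scale and CRY1 lies on both sides of 0. All the other clock genes, called or not, stay above 0 throughout.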

How the data were processed

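Libraries of LX-2 RNA were read on a NovaSeq instrument (Illumina), and the authors used the Cufflinks package and cuffmerge. Which aligner, counter, strand option and genome build were used is not given in the sources used here. Gene coordinates lie on GRCh38, since 32872 of the 32887 identifiers found in GENCODE 29 overlapped the gene of that name. Raw gene counts, as whole numbers, were deposited by the authors beside FPKM values, which scale fragments to transcript length and library size. Samples were grouped by their titles.

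Genes whose FPKM averaged 0.5 or more entered edgeR's quasi-likelihood test (edgeR 4.0.16, R 4.3.3) on counts with TMM factors, which were 0.958 to 0.968 for PBS and 1.03 to 1.04 for rhSema3C, with Benjamini-Hochberg adjustment over all 14178 genes. Standard errors and intervals were derived from the log2 fold change and its F statistic. Alternatives used DESeq2 1.42.0, limma 3.58.1 on log2(FPKM + 1), log2(FPKM + 0.1) or log2(TPM + 1), other scalings and filters, the replicate number as a block, and each sample left out. No replicates were within counting noise of each other (chi-square over its degrees of freedom, 16.0 to 27.9). Without molecular identifiers, counts are not counted molecules.

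The clock genes, the wider list and the markers were chosen with earlier results of these data known. The text names all clock genes, the genes of the wider list except 2 that are counted but not reported here, the markers, and genes that overlap a clock gene. Promoter sequences are RefSeq's (GRCh38.p14). Figures used matplotlib 3.10.9.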

Additional observations from a re-analysis of the deposited data

How the results depend on the processing

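Of the 10 clock genes, 5 were called higher with TMM scaling, 3 of the 4 that remained with a mean FPKM of at least 5, 8 with limma on log2(TPM + 1), and 1 at a fold change above 2 with an unadjusted p below 0.05. Of all genes, these rules called higher 4490 of 14178, 2603 of 6971, 6934 of 14178 and 485 of 14178. With each sample left out in turn, 5 or 6 clock genes were called higher, against 4065 to 4301 of all genes. No alternative called a clock gene lower. CLOCK passed at 0.30 with library size alone, 0.18 with DESeq2, 0.22 and 0.28 with limma on log2(FPKM + 1) and log2(FPKM + 0.1), and 0.38 with TPM, and it ranged from 0.13 to 0.27 with samples left out. CRY2 passed at 0.35, 0.24, 0.34 and 0.43 with library size alone, the same FPKM fits and TPM, and ranged from 0.17 to 0.37 with samples left out. CRY1 was above 0 with library size alone (0.0852), the FPKM filter of 5 (0.0792), both FPKM fits (0.0711 and 0.0792) and TPM (0.20), and ranged from -0.0639 to 0.0145 with samples left out.

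In the wider list, 12 genes were called higher with TPM in place of 7. The 6 called lower became 3 with library size alone, with the FPKM filter of 5 and with both FPKM fits, and 2 with TPM. With samples left out, 7 to 8 were called higher and 4 to 6 lower. The sign turned for ARNTL2 (0.0090) and TIMELESS (0.0873) with TPM, for RORA and TIPIN without rhSema3C replicate 2 (-0.38 and -0.0212, the lowest of ranges that reach 0.92 and 0.19), for TEF without PBS replicate 1 (-0.0149) or rhSema3C replicate 3 (-0.0121), in a range that reaches 0.0767, and for FBXW11 with library size alone (0.0722), the FPKM filter of 5 (0.0661), the FPKM fits (0.0640 and 0.0666) and TPM (0.19). Among all genes, 2603 were called higher and 2621 lower of the 6971 with a mean FPKM of at least 5, and 6934 higher and 2428 lower with TPM, against 4490 and 4339 with TMM. The filter of 5 left 4 of the 10 clock genes in the test, but all 6 genes called lower in the wider list were still tested under it. The cause of the other changes was not tested.

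The labels number the replicates 1 to 3 in both groups. For samples with the same number, the deviations from the group means had correlations of -0.00414, 0.0581 and -0.0274. For samples with different numbers they ranged from -0.07 to 0.0714. These values cannot show whether samples with the same number came from a shared culture or batch. With the replicate number as a block, 5 clock genes were called higher and 0 lower, the wider list had 6 higher and 5 lower, with BTRC and TIMELESS no longer called, and 4221 of all genes were higher and 4120 lower. The ratios within a library gave nearly the same differences with counts in place of FPKM. DBP had the fewest counts of the clock genes, 282 in its lowest library, and a standard error of 0.16. Groups of 3 were not examined for outlying samples.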
